A study of Caenorhabditis elegans with 139 samples.

Results

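In whole embryos of the nematode Caenorhabditis elegans, 184 genes out of 20687 gene lines in the deposited table had a high mean level at 60 to 100 min after the 4-cell stage and low means before it and at 200 to 290 min. The members were chosen on these measured levels. Levels are given as CPM, the counts of a gene scaled to a total of 1000000 gene counts in each embryo. A member had a mean of at least 50 CPM over the 9 embryos labelled 60 to 100 min. That mean was at least 8 times the mean over -50 to 0 min and over 200 to 290 min, and it was higher than the mean over 110 to 190 min. Embryos with the title numbers 1 to 4 and 61 were left out of the window of 200 to 290 min. The levels in these 4 windows were therefore fixed by the choice and are given as a description with no test.

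The messenger RNA of 139 single embryos was measured with CEL-Seq, which barcodes the RNA of each sample, amplifies it by in vitro transcription and reads the 3′ ends of transcripts. No strain, genotype or treatment other than time was named in the labels. Adult hermaphrodites were cut open to release the embryos, which were rinsed in bleach and albumin, picked at the 4-cell stage, held at 20 °C for set times and frozen. Picking at the 4-cell stage cannot apply to the embryos labelled -50 and -30 min (numbers 95 and 96). The embryos fall by labelled time into 7 embryos at -50 to 0 min, 10 at 10 to 30 min, 2 at 40 to 50 min, 9 at 60 to 100 min, 13 at 110 to 190 min, 30 at 200 to 290 min, 18 at 300 to 390 min, 25 at 400 to 590 min and 25 at 600 to 840 min. The reads of a 3′ method carry no gene length term, so CPM values of different genes are set side by side without a length correction. In a whole embryo, more cells that express a gene and more RNA per cell cannot be told apart.

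The early embryo of Caenorhabditis elegans runs at first on RNA that the mother placed in the oocyte, and its own genes are switched on over the first cell divisions. Many of the first genes are known to be expressed for a short time only: transcription factors that fix the fate of single founder cells, ligands of the Notch pathway by which neighbouring cells instruct each other, and large families of F-box and Skp1-related proteins. Skp1-related proteins are the adaptor of SCF ubiquitin ligases, and F-box proteins bind to that adaptor and select the proteins to be marked for breakdown. Yolk proteins, in contrast, are made by the intestine of the adult hermaphrodite.

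The depth was 692649 gene counts in the median embryo (12338 to 4557314), and 197826 to 1927968 in the 9 embryos of 60 to 100 min. The labels name no batch, but labelled times restart along the title numbers of the embryos, and the 9 embryos of 60 to 100 min come from 3 runs of numbers: 5 from 95 to 139, 2 from 1 to 50 (numbers 9 and 10) and 2 from 51 to 70 (numbers 55 and 56). The 4 embryos of the last 2 runs are grouped below as numbers 1 to 70. The embryos numbered 97, 99 and 100, labelled 0, 20 and 30 min, had 30049, 27138 and 23630 gene counts. Nothing in the labels says that embryos came from separate mothers or days, so the p-values below measure the spread between these embryos only. No pair of the 139 columns was identical.

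All members together took 5.83% ± 1.13 of the gene counts at 60 to 100 min (SD, n = 9), from 3.67% to 7.34%, with the highest value of this window in the embryo of 90 min numbered 106. The share was between 0.0741% and 0.288% in 6 of the 7 embryos of -50 to 0 min. The embryo numbered 97 had 1.25%. At 40 and 50 min the single embryos had 1.49% and 2.86%. At 110 to 190 min the share ran from 0.227% to 8.12% over 13 embryos, with the highest value in the embryo of 110 min numbered 58. At 200 to 290 min it lay between 0.0355% and 0.650% over the 25 embryos the rule used. The 95% Wilson interval of the share reached at most 0.109 percentage points to either side in the embryos of 60 to 100 min, and like every interval and floor here it covers counting error only.

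The members did not behave as 1 group. At 70 to 90 min, the mean level in the 3 embryos numbered 95 to 139 was divided by the mean in the 4 embryos numbered 1 to 70. For 32 members this ratio lay between 0.00438 and 0.162. For the other 152 it lay between 0.258 and 16.4 with a median of 2.33, and 134 of the 152 were higher in the embryos numbered 95 to 139. The line between the groups was put at 0.25 after these values were seen. The 152 are called concordant and the 32 discordant from here on, and the split gets no test. The limit has 1 side only, so concordant means not low in embryos 95 to 139. It does not mean equal levels in both ranges, as the upper quartile of the ratio in the 152 was 3.84. Differences between the 2 ranges of numbers in these members at 60 to 100 min follow from the split and are given as a description. Of the concordant members, 126 of 152 also met the whole rule when it was applied to embryos 95 to 139 alone.

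**Figure D1:**
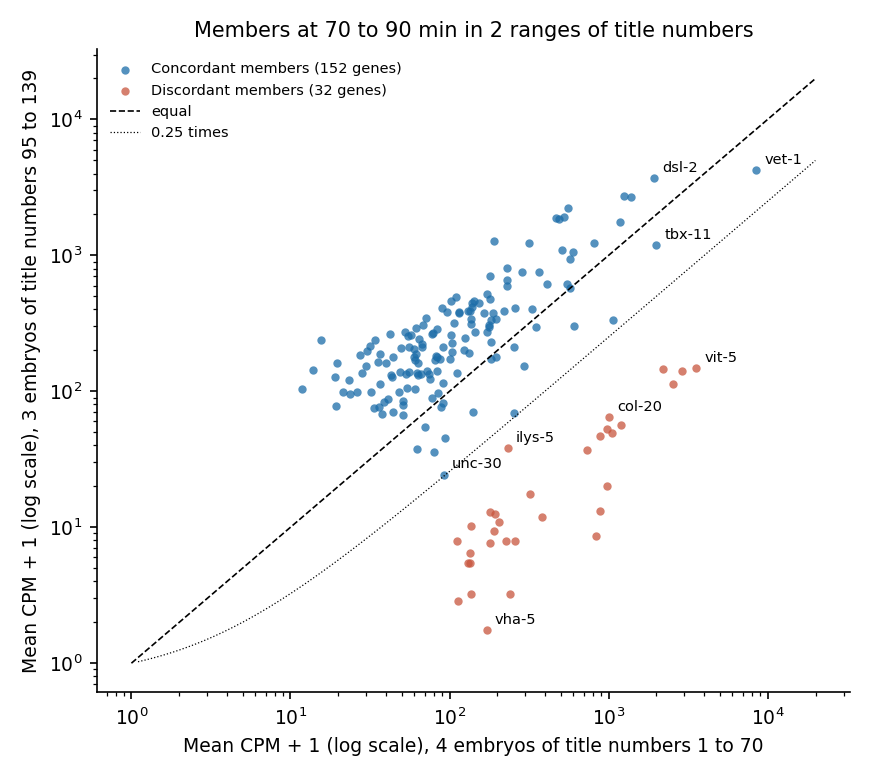
Mean level (CPM + 1, log scales) of each of the 184 members at 70 to 90 min in the 3 embryos numbered 95 to 139 (vertical axis) and the 4 embryos numbered 1 to 70 (horizontal axis). The dashed line marks equal levels and the dotted line a ratio of 0.25. The 32 discordant members lie below the dotted line with ratios of 0.162 or less.

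A pulse at 60 to 100 min described the time course of the concordant members but not that of the discordant ones. In the 5 embryos of 60 to 100 min numbered 95 to 139 the concordant members took 3.53% to 7.28% of gene counts, and in the 4 numbered 1 to 70 they took 3.32% to 4.74%. The discordant members took 0.0157% to 0.238% in the embryos numbered 95 to 139 and, by the choice, more in those numbered 1 to 70: 3.52% and 2.83% in numbers 10 and 9, and 1.501% and 1.475% in numbers 55 and 56. At 600 to 840 min the concordant members held 0.0345% to 0.171% of gene counts, and the discordant members held 0.549% to 6.64%. All 25 embryos of that window are numbered 1 to 50, so labelled time and title number range cannot be told apart there. In the 3 embryos of 400 to 420 min numbered 95 to 139 the discordant share was 0.277%, 0.170% and 0.314%. The highest mean over the windows of 300 to 390, 400 to 590 and 600 to 840 min was under 5% of the mean at 60 to 100 min for 134 of 152 concordant members. It was at least 81.8% of it for each of the 32 discordant members.

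**Figure D2:**
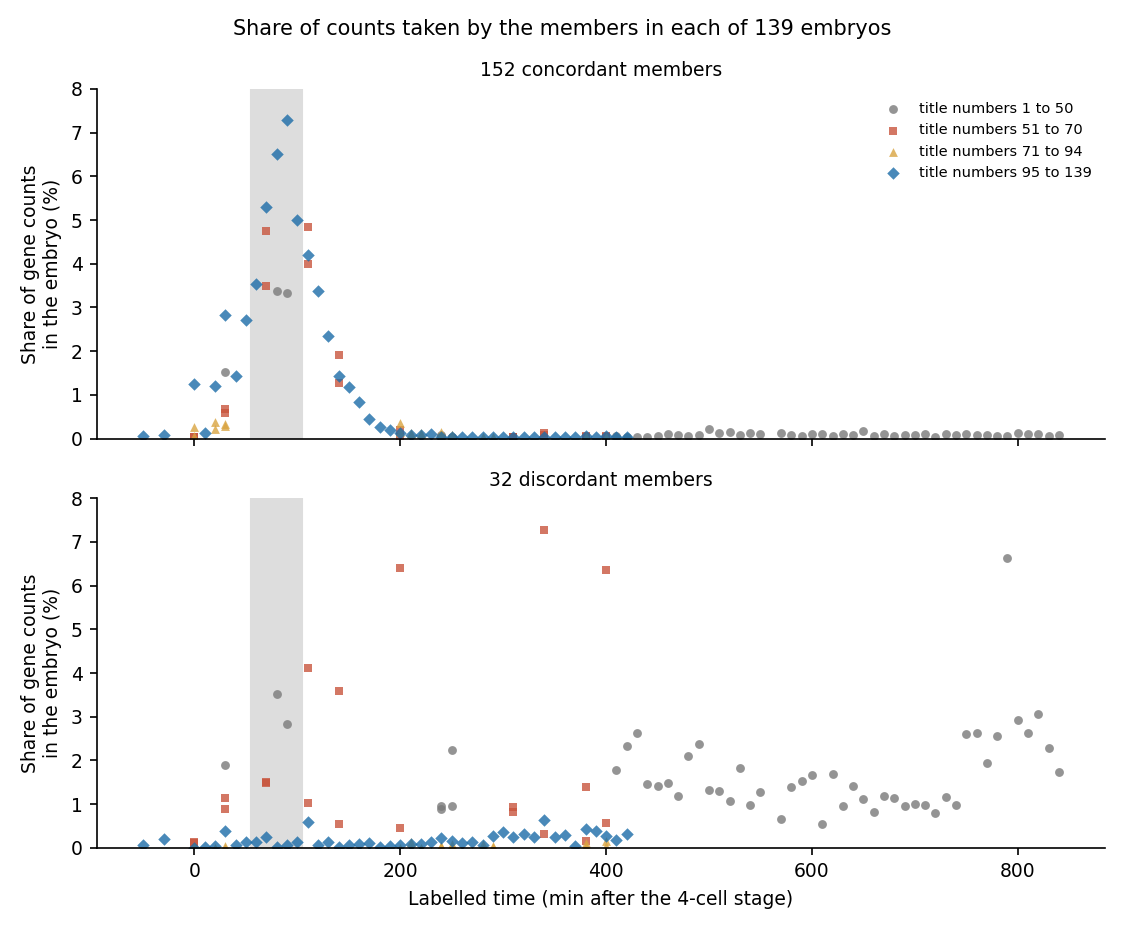
Share of gene counts (%) taken by the 152 concordant members (top) and the 32 discordant members (bottom) in each of the 139 embryos, against labelled time in min after the 4-cell stage. Colours and markers give the range of title numbers, and the grey band is the window of 60 to 100 min. The concordant share peaks at 7.28% at 90 min, while the discordant share is scattered over the whole time course and is low in the embryos numbered 95 to 139.

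Among the concordant members, vet-1 (T05E7.5, a gene named for its very early transcript) had the highest mean. Its level at 60 to 100 min was 1270 CPM in the lowest embryo, 4630 in the median and 10713 in the highest, with a mean of 5644 ± 3336 CPM (SD, n = 9). It was present before and after as well. At -50 to 0 min it had 0.741, 34.5 and 699 CPM (lowest, median and highest of 7), and the highest value came from the shallow embryo 97. At 110 to 190 min it had 13.2, 764 and 11567 CPM in the lowest, median and highest of 13 embryos. In the embryos numbered 95 to 139 it was at 492, 1158, 1270, 3072, 4630, 4950 and 3145 CPM at 40, 50, 60, 70, 80, 90 and 100 min. The embryos numbered 55, 56, 10 and 9 were higher than those of the same labelled time, with 4561 and 10713 CPM at 70 min, 10449 CPM at 80 min and 8007 CPM at 90 min. The other genes of the name, vet-6 and vet-2, averaged 668 ± 434 and 580 ± 134 CPM at 60 to 100 min (SD, n = 9), and both were highest at 110 min in the embryos numbered 95 to 139. All 3 vet genes of the table were members.

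Next came dsl-2 (W09G12.1), which encodes a protein of the Delta, Serrate and LAG-2 family of Notch ligands. It had 1367, 2417 and 4444 CPM in the lowest, median and highest embryo of 60 to 100 min, and a mean of 2652 ± 984 CPM (SD, n = 9). In the embryos numbered 95 to 139 it was at 810, 1251, 1921, 3514, 3139, 4444, 3163 and 2815 CPM at 40, 50, 60, 70, 80, 90, 100 and 110 min. The embryos of 60 to 100 min numbered 95 to 139 (1921 to 4444 CPM) and those numbered 1 to 70 (1367 to 2417 CPM) overlapped. Its neighbour dsl-1 (W09G12.4), of the same family, followed at a lower level with 42.3, 161 and 210 CPM in the lowest, median and highest embryo. In the annotation of assembly WBcel235 the 2 genes lie on chromosome IV between positions 1202651 and 1208080. They were 2 of the 8 genes in a list of Notch ligands and receptors. The receptor lin-12 averaged 56.4 ± 37.6 CPM and the receptor glp-1, which is supplied by the mother, 51.6 ± 42.7 CPM at 60 to 100 min (SD, n = 9). The ligand apx-1 was at 23.7 CPM, lag-2 at 4.71 CPM and dsl-3 at 0.594 CPM on average in that window, and dsl-3 had its highest mean of 371 CPM at 200 to 290 min. Of the REF-1 family, transcription factors that Notch signals switch on in the early embryo, 0 of 6 genes were members. One of them, hlh-27, averaged 147 CPM at 40 to 50 min and 47.9 CPM at 60 to 100 min.

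Regulators of founder cell fate formed a small group with moderate levels, apart from tbx-11. A list of 30 early lineage regulators held 5 members, and 13 of the 30 reached a mean of 50 CPM at 60 to 100 min. The T-box factor tbx-11 had 682, 1262 and 2990 CPM in the lowest, median and highest embryo of that window. In the embryos numbered 95 to 139 it was highest at 100 min with 2607 CPM, later than most members. The T-box factors tbx-37 and tbx-38, which act together in the descendants of the founder cell ABa, averaged 65.2 ± 32.0 and 74.2 ± 41.3 CPM (SD, n = 9). In 1 of the 9 embryos, number 56, no count of tbx-38 was found. At 110 to 190 min tbx-37 averaged 3.31 CPM with counts in 3 of 13 embryos, and tbx-38 averaged 6.09 CPM with counts in 7 of 13. The homeobox gene ceh-51, which acts in the mesoderm made by the founder cell MS, had 52.9, 133 and 280 CPM in the lowest, median and highest embryo and was highest at 90 min. The GATA factor end-1, which specifies the endoderm, averaged 52.2 ± 33.5 CPM with counts in 7 of 9 embryos, and 42.6 CPM at 110 to 190 min. Its partner end-3 and the MS regulator tbx-35 are no members. They averaged 43.1 and 14.7 CPM at 40 to 50 min and 4.08 and 3.46 CPM at 60 to 100 min. The forkhead genes fkh-4 and fkh-5 averaged 285 ± 221 and 60.4 ± 37.1 CPM at 60 to 100 min (SD, n = 9). The AP-2 family gene aptf-4 had 138, 344 and 1067 CPM in the lowest, median and highest embryo, and its mean at 110 to 190 min was 20.8 CPM.

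Of the 20 skr genes in the table, which encode Skp1-related proteins, 7 were members, and their means at 60 to 100 min ran from 474 to 1936 CPM with a median of 1244 CPM. The highest, skr-14, had 923, 1647 and 3271 CPM in the lowest, median and highest embryo. Close to it was skr-10 with 773, 1515 and 3472 CPM. The genes skr-8 and skr-9 averaged 1404 ± 522 and 1244 ± 902 CPM (SD, n = 9). All 7 were highest at 80 or 90 min in the embryos numbered 95 to 139, and all 7 took until 160 to 190 min to fall under 10% of that value. The genes skr-13, skr-9, skr-8 and skr-12 lie within 1 stretch of chromosome IV (17162097 to 17167792 in WBcel235). Reads with more than 1 alignment have a line of their own in the table, and that line holds 0 counts. How the reads of near-identical copies were placed is therefore unknown, and the levels of these 4 genes, and of the pair F56G4.2 and F56G4.3, are uncertain one by one. Likeness of sequence was not compared here, so the same limit may hold for other families with several members, such as fbxb and vit.

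Among the members, the F-box genes named fbxb were the largest family. Of the 104 fbxb genes 42 were members, as were 4 of the 39 fbxc genes, and all 46 were concordant. The whole list of 311 F-box genes, named fbxa, fbxb or fbxc, held these 46 members, so no fbxa gene was a member. Each was at a moderate level: the means of the fbxb members at 60 to 100 min ran from 54.4 to 323 CPM with a median of 111 CPM. The highest was fbxb-54 with 81.5, 289 and 585 CPM in the lowest, median and highest of the 9 embryos. It was followed by fbxb-50 with a mean of 321 ± 165 CPM and fbxb-84 with 305 ± 190 CPM (SD, n = 9). Among fbxc genes the highest were fbxc-28, fbxc-26 and fbxc-21 with means of 138, 91.7 and 88.4 CPM. In the embryos numbered 95 to 139 the fbxb members were highest between 70 and 140 min with a median of 90 min. The latest of them were fbxb-19 at 140 min and fbxb-3 at 120 min.

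Genes named sdz, for dependence of their zygotic expression on the maternal factor SKN-1, gave 11 members out of 31 in the table. The highest was sdz-14 with 282, 489 and 634 CPM in the lowest, median and highest embryo of 60 to 100 min. After it came sdz-7 with a mean of 400 ± 301 CPM and sdz-9 with 308 ± 187 CPM (SD, n = 9). The gene pes-10, a classic reporter of the first zygotic transcription, had 158, 490 and 1098 CPM in the lowest, median and highest embryo. The gene sepa-1, whose product takes part in the clearance of P granule proteins from somatic cells by autophagy, averaged 880 ± 548 CPM and was highest at 100 min with 2162 CPM. The kinase-family genes kin-33 and kin-34 averaged 181 ± 63.2 and 112 ± 57.6 CPM (SD, n = 9). Of the remaining gene lists, cell cycle regulators (17 genes), gastrulation and Wnt genes (13), nuclear hormone receptors (268), basic helix-loop-helix genes (25) and zinc finger genes named ztf (25) held 0 members. Homeobox genes named ceh (63) held 1, ceh-51.

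The discordant members are led by yolk genes. Of the 6 vit genes, which encode the yolk proteins of the adult, 5 were members, and vit-6 was not. In the embryos numbered 95 to 139, vit-5 (C04F6.1) had 212, 291, 40.4, 107 and 191 CPM at 60, 70, 80, 90 and 100 min. In those numbered 55, 56, 10 and 9 it had 1971 and 2494 CPM at 70 min, 6002 CPM at 80 min and 3674 CPM at 90 min. For vit-2 and vit-3, the next in mean level, the means over the 9 embryos were 1361 and 1196 CPM. For vit-2 the values were 10.1 to 333 CPM in the first 5 embryos and 2257 to 3431 CPM in the other 4. The mean over the 9 embryos, 1665 ± 2087 CPM for vit-5 and 1361 ± 1467 CPM for vit-2 (SD), thus has an SD larger than itself. Others were the collagens col-140, col-20 and col-119, the cathepsin B-like proteases cpr-1, cpr-9 and cpr-5, the aspartyl proteases asp-1 and asp-5, perm-2 and perm-4, which act in the eggshell, ule-3 and ule-5, and vha-5, a subunit of the vacuolar proton pump. The collagens averaged 570, 481 and 350 CPM and the 3 cpr genes 378, 176 and 104 CPM at 60 to 100 min.

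The 6 yolk genes, 5 of them discordant members, together took 0.0136% to 0.186% of gene counts in the embryos of 60 to 100 min numbered 95 to 139 and 0.964% to 2.26% in those numbered 1 to 70. Sperm genes of the msp name (30 in the table) were not members, and none reached 50 CPM. A list of 12 maternal transcripts took 0.114% to 0.407% of gene counts in the embryos numbered 95 to 139 and 0.263% to 0.517% in those numbered 1 to 70. Of 5 late embryo markers 0 were members. The discordant share was also high in embryos outside the pulse window: 6.42% in the embryo of 200 min numbered 61, which the rule left out, and 7.29% in the embryo of 340 min numbered 65. The part of RNA from the mother or of the title number range in the level of the discordant members was not tested.

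Concordant members differed in the time of their peak. In the embryos numbered 95 to 139, with 1 embryo per labelled time and only those with at least 100000 gene counts used, 17 of 152 had their highest value up to 190 min at 50 or 60 min. Another 23 were highest at 70 min, 90 at 80 or 90 min, and 22 at 100 min or later. The earliest were sgnh-1, ccch-2, which encodes a CCCH zinc finger protein, dct-13, T22B2.1 and sdz-15. These 5 were named for their peak at 50 min after their values were seen. For sgnh-1 the embryos of 40, 50, 60, 70, 80, 90 and 100 min had 577, 827, 494, 397, 511, 210 and 58.1 CPM, and for ccch-2 they had 276, 530, 430, 366, 278, 169 and 36.8 CPM. Both were highest before the pulse window and low at its end. The embryos of 70 and 110 min numbered 51 to 70 lie in windows that the rule used, so their levels are a description. Of the 17 members that peaked at 50 or 60 min, 0 had a higher mean at 110 min than at 70 min in those embryos. Of the 23 that peaked at 70 min 1 did, and of the 90 that peaked at 80 or 90 min 40 did. Of the 22 that peaked at 100 min or later, 18 did.

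**Figure D3:**
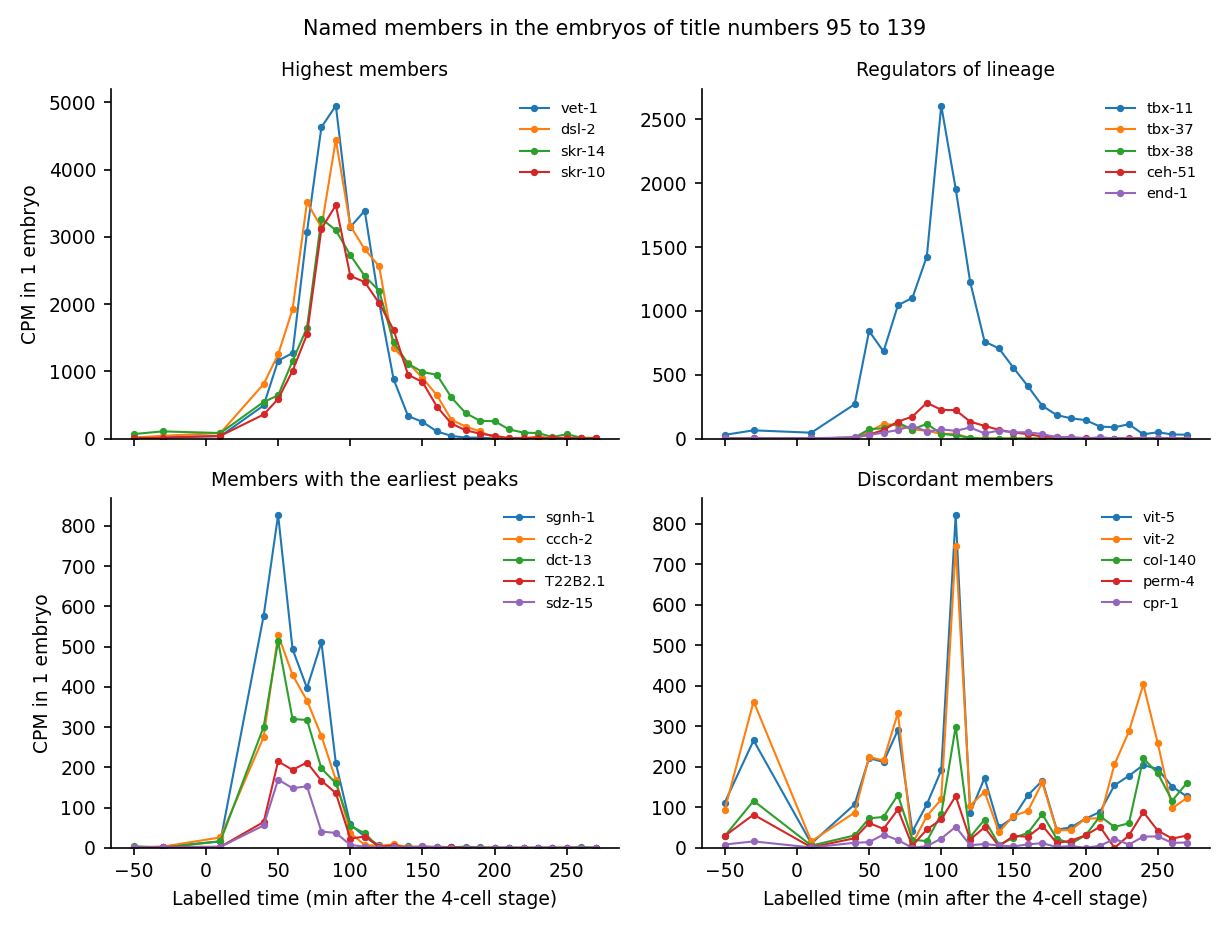
CPM of named members in single embryos numbered 95 to 139, against labelled time in min after the 4-cell stage; each point is 1 embryo and the panels have different vertical scales. The highest members and most lineage regulators peak between 70 and 100 min, and the earliest members at 50 min. The discordant members have their highest point in the 1 embryo of 110 min.

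The decline was read in the same embryos as the peaks. The search for a level under 10% began at each member's own peak, so later times for later peaks are partly fixed in advance. The median concordant member stood at 13.2% of its highest value at 40 min, 27.5% at 50 min, 41.7% at 60 min, 61.9% at 70 min, 76.4% at 80 min and 91.0% at 90 min. It then stood at 49.7% at 100 min, 39.3% at 110 min, 24.8% at 120 min, 9.70% at 140 min and 0.755% at 190 min. Members that peaked at 50 or 60 min were first under 10% of their highest value at a median of 100 min, those that peaked at 70 min at 130 min, those of 80 or 90 min at 150 min and those of 100 min or later at 170 min. Among families, the 11 sdz members reached it at a median of 140 min, the 42 fbxb members at 160 min and the 7 skr members at 170 min. The embryos of 80 and 90 min, where most members were highest, had 197826 and 242809 gene counts, less than the 896597 and 1927968 counts of their neighbours at 70 and 100 min. The part of depth in the number of peaks at these times was not tested. Of the discordant members 29 of 32 had their highest value up to 190 min in the 1 embryo of 110 min, where they took 0.597% of gene counts. They took 0.629% in the embryo of 340 min numbered 131.

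**Figure D4:**
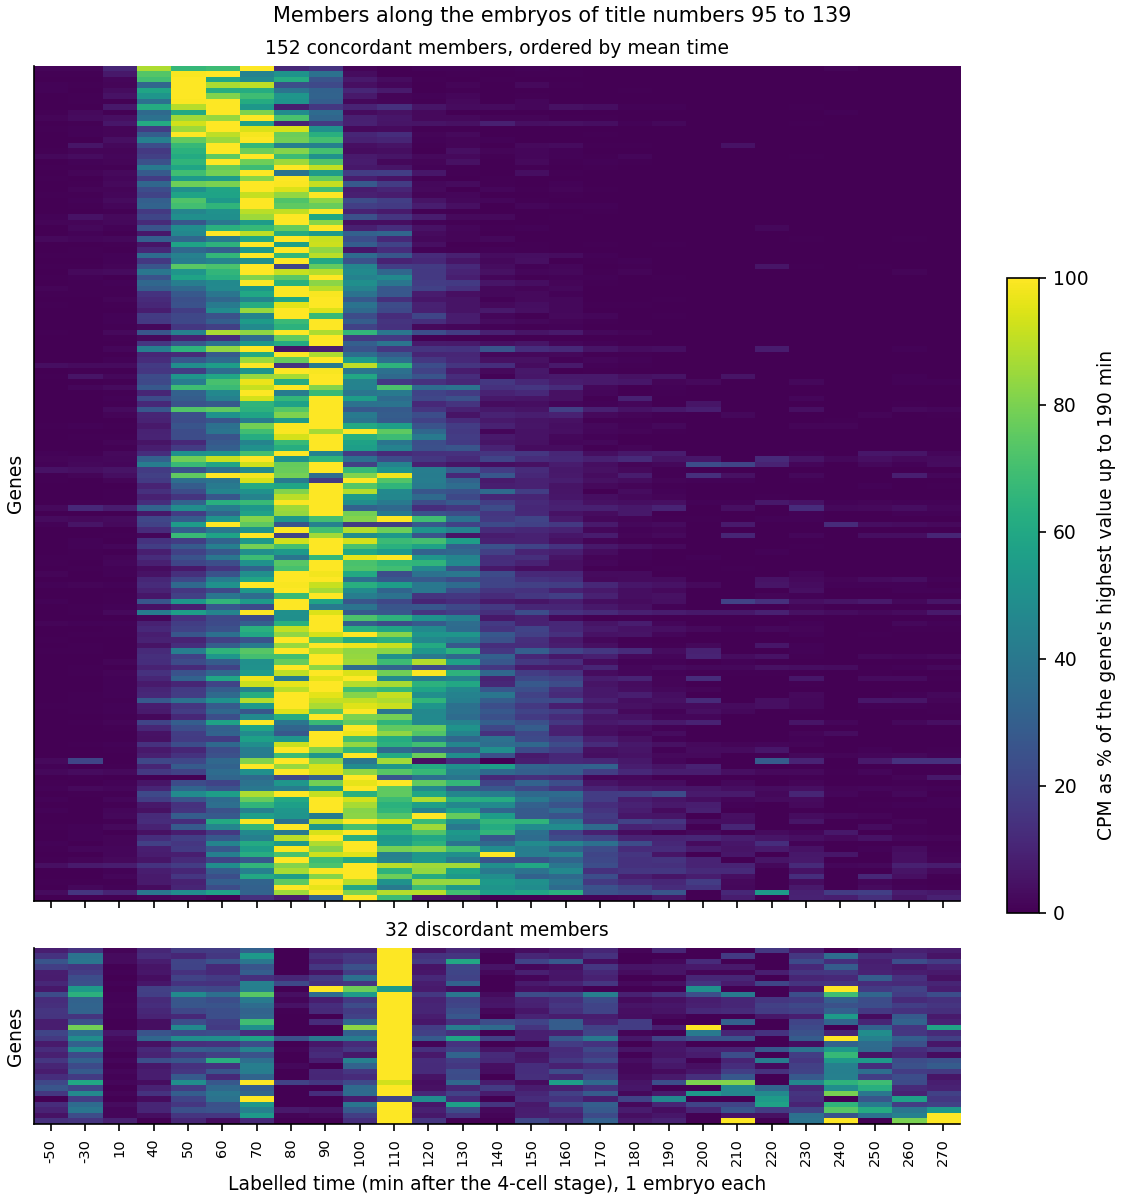
Level of each member (1 line per gene) in the embryos numbered 95 to 139 from -50 to 270 min, as a percent of its highest value up to 190 min. The 152 concordant members (top) are ordered by mean time and run from peaks at 50 min to peaks at 100 min or later. Most of the 32 discordant members (bottom) share 1 bright column at 110 min.

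The windows of 10 to 30 min and 40 to 50 min were not used by the rule, so the rise before the pulse could be tested there. The test was edgeR's quasi-likelihood test on the counts, with 2 embryos of 40 to 50 min (numbers 101 and 102) and 10 embryos of 10 to 30 min. A call needed a fold of at least 2 and an adjusted p (Benjamini-Hochberg, over all 7021 genes tested) under 0.05. One member was called higher, out of 179 that passed the filter on low counts, and 0 were called lower. Among all genes the same member was the only call, which is 0.0142% of genes called higher, and 0 were called lower. That member, Y37E11AL.9, had 26.3 and 78.0 CPM in the embryos of 40 and 50 min, against 0, 0 and 2.01 CPM in the lowest, median and highest embryo of 10 to 30 min. The groups did not overlap. Its log2 fold change was 7.34 ± 1.20 (SE) with an adjusted p of 0.0394. Counts of it were found in only 2 of the 10 earlier embryos, so this fold rests on the prior count of the fit. The filter asks for enough counts in as few as 2 embryos, so a gene can pass through the 40 to 50 min group alone. Y37E11AL.9 passed only through that group, where it is high, so its call is given as a description. The call was lost with relative log expression size factors, with DESeq2, within the embryos numbered 95 to 139, with labelled minutes as a number and without either embryo of 40 to 50 min.

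Short of the call, the concordant members leaned upward. Of the 148 concordant members tested, 145 had a positive log2 fold change, with a median of 2.17, against 46.4% of all 7021 genes and a median of -0.08. An unadjusted p under 0.05 was reached by 74 of the 148, all higher, while 3.38% of all genes were higher and 2.16% lower at that p. None of the 31 discordant members tested reached it. For both sets the result is partly given by the split, as both embryos of 40 to 50 min are numbered 95 to 139. There the split chose the discordant members to be low and the concordant ones not to be. The filter can also be passed through these 2 embryos alone, so the counts are a description. Within the embryos numbered 95 to 139, 140 of 149 concordant members tested were positive, with a median of 2.83 against 0.09 for all genes. The rule had fixed low levels at -50 to 0 min and high levels at 60 to 100 min, so an intermediate level between these windows is partly given by the choice. The clearest after Y37E11AL.9 was sdz-15 with 55.7 and 169 CPM in the embryos of 40 and 50 min, against 0, 4.90 and 42.3 CPM in the lowest, median and highest embryo of 10 to 30 min. Its log2 fold change was 4.39 ± 0.92 (SE, adjusted p = 0.181). For dsl-2 the embryos had 810 and 1251 CPM, against 45.9, 193 and 1608 CPM in the lowest, median and highest of 10 to 30 min. These groups overlapped, and the log2 fold change was 1.78 ± 0.72 (SE, adjusted p = 0.851). By name, the 42 fbxb members had a median log2 fold change of 2.21, the 11 sdz members one of 2.24, and the 7 skr members lay between 0.91 and 2.16. Every member of these 3 families was above 0. Those that peaked at 50 or 60 min had a median of 2.60, those of 70 min 2.33, those of 80 or 90 min 1.99 and those of 100 min or later 1.69. The peak times were read in a series that holds the embryos of 40 and 50 min, so this order is partly given.

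**Figure D5:**
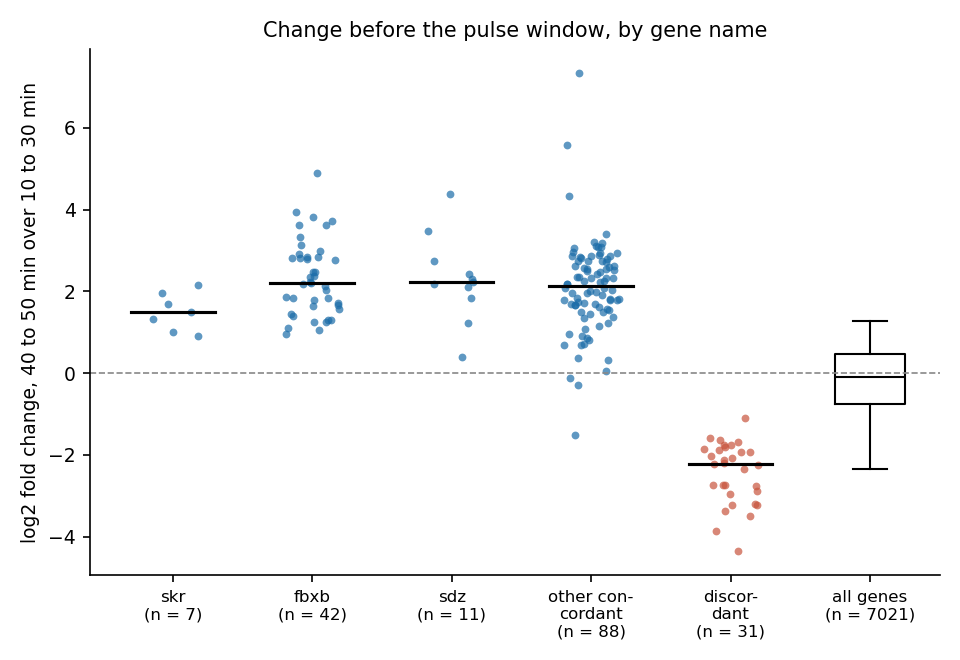
Log2 fold change of 40 to 50 min over 10 to 30 min for the members that were tested, by gene name and set, and for all 7021 genes tested. Points are genes and bars are medians; the box gives the quartiles and the whiskers the 5th and 95th percentiles of all genes. The families skr, fbxb and sdz lie above 0, and the discordant members lie below 0, with a median of -2.22. Both embryos of 40 to 50 min are numbered 95 to 139, where the split chose the discordant members to be low and the concordant ones not to be. The positions of both sets are therefore partly given by the split. Within the embryos numbered 95 to 139 the median over the 19 discordant members tested was 1.62.

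The other genes of the lists gave no call in this window either, but across all 7021 genes tested only 1 was called (0.0142%). Simulated 2-fold changes gave 0 calls among 100 genes, and simulated 4-fold changes gave 18 calls among 100. A list without calls is therefore the usual outcome of this test. The counts of 0 below do not show that a list was unchanged. Of 53 F-box genes that were tested and are no members, 0 were called, with a median log2 fold change of 0.63, against 1.58 for all 99 F-box genes tested. Of 16 tested genes named sdz, pes or vet that are no members, 0 were called, with a median of 1.99. The 20 other lineage regulators had a median of -0.85 and the 4 tested REF-1 genes of 2.01, again with 0 calls. In the cullin and skr list the 15 tested genes that are no members had a median of 0.34. The 4 Notch ligands and receptors that are no members had a median of -0.32, and the 12 maternal transcripts one of -0.70.

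The embryos of 10 to 30 min were uneven, and the result turned on them. The 3 embryos of 30 min numbered 46, 53 and 54 had 1.52%, 0.667% and 0.588% of gene counts in concordant members and 1.89%, 1.14% and 0.880% in discordant members. The shallow embryos numbered 99 and 100 had 1.19% and 2.82% in concordant members and 0.0368% and 0.394% in discordant members. In the other 5 embryos of this window the values were 0.131% to 0.379% and 0.00229% to 0.0352%. The 3 embryos of 30 min numbered 46, 53 and 54 were left out in an alternative chosen after seeing these shares. Leaving out embryos with a high member share from the earlier window raises the members' fold by construction, so its counts are a description of how much the test turned on them. In it, 59 of 153 tested members were called higher and 0 lower, against 91 of 6138 genes called higher (1.48%) and 10 called lower (0.163%). Of the 59, 57 were concordant. With labelled minutes as a number over all 12 embryos, 19 of 179 tested members had a slope above 0 at an adjusted p under 0.05, against 24 of 7021 genes (0.342%), and 0 of 7021 had one below it. The median log2 fold change of the discordant members was -2.22 over the 31 tested with all embryos. It was 2.56 over the 12 that passed the filter without the 3, and 1.62 over 19 within the embryos numbered 95 to 139. Both embryos of 40 to 50 min lie in that range, where the split chose the discordant members to be low. Lower levels than in embryos 46, 53 and 54 are therefore partly given by the split. These medians are over different genes, and the filter can be passed through the 2 embryos of 40 to 50 min alone. A change of direction of the set cannot be read from them. For vet-1 the log2 fold change was -0.29 with all embryos and 1.62 without the 3. Embryo 46 alone held 4878 CPM of vet-1, above each of the 2 embryos of 40 to 50 min. The part of these shares in the result was not tested.

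Late in embryogenesis few concordant members had enough counts to pass the filter. In the comparison of 25 embryos of 600 to 840 min with 25 of 400 to 590 min, windows that the rule did not use, 6 of the 152 concordant members passed the filter on low counts and 32 of 32 discordant members did. A count of 0 allowed 2.30 to 76.1 CPM in the embryos of 600 to 840 min and 1.33 to 24.2 CPM in those of 400 to 590 min, taking 3 counts as the limit. The median concordant member had a mean of 0 CPM at 600 to 840 min and 0.136 CPM at 400 to 590 min. Among the 38 members tested, 8 were called higher and 1 lower by edgeR's quasi-likelihood test, where 13.3% of 5288 genes were called higher and 15.6% lower. The log2 fold change was positive for 4 of the 6 concordant and 29 of the 32 discordant members, and for 45.3% of all genes. Without the filter 113 of the 152 concordant members were tested, with 9 called higher and 26 lower. All genes then gave 2871 higher and 2465 lower out of 16682.

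Of the 6 concordant members tested late, 2 rose and 1 fell. The galectin gene lec-6 had 0, 126 and 547 CPM in the lowest, median and highest embryo of 600 to 840 min, against 0, 45.2 and 218 CPM at 400 to 590 min. The ranges overlapped, and it rose by a log2 fold change of 1.97 ± 0.35 (SE, adjusted p = 9.09e-06). The gene mab-7, which shapes sensory rays of the male tail, had 0, 1.14 and 96.1 CPM at 600 to 840 min, against 0, 132 and 1147 CPM at 400 to 590 min. It fell, with a log2 fold change of -3.96 ± 0.61 (SE, adjusted p = 4.22e-07). In its early pulse mab-7 had 28.0, 70.0 and 115 CPM in the lowest, median and highest embryo of 60 to 100 min, and it was similar in both ranges of title numbers with a ratio of 0.86. C09G1.5 rose, with 0, 236 and 831 CPM against 0, 26.3 and 631 CPM and a log2 fold change of 1.71 ± 0.58 (SE, adjusted p = 0.0171). That call was lost within the embryos numbered 1 to 50, where the log2 fold change was 1.24. The neuropeptide gene flp-10 (0.99, adjusted p = 0.0531), the hexosaminidase gene hex-5 (0.69, adjusted p = 0.243) and unc-30 (-0.67, adjusted p = 0.292), a homeodomain factor of GABAergic motor neurons, did not pass. No skr, fbxb, fbxc, sdz, vet or tbx member passed the filter. Among the lists, 0 of 10 tested lineage regulators were called higher and 4 lower, 0 of 12 homeobox genes higher and 6 lower, and 0 of 11 gastrulation and Wnt genes higher and 5 lower. Of the 5 late embryo markers 3 were called higher and 1 lower, and of the 12 maternal transcripts 0 were called either way.

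Of the 32 discordant members, 6 were called higher and 0 lower in the same comparison. Among all 5288 genes tested, 13.3% were called higher and 15.6% lower. The 6 became 5 with relative log expression factors, against 618 of 5288 genes called higher. Within the embryos numbered 1 to 50 they became 4, against 703 of 5572 genes. The protease gene asp-5 had 182, 558 and 1212 CPM in the lowest, median and highest embryo of 600 to 840 min, against 3.97, 152 and 414 CPM at 400 to 590 min, with a log2 fold change of 2.30 ± 0.32 (SE, adjusted p = 5.24e-08). For asp-1 the values were 1452, 2061 and 3480 CPM against 31.0, 964 and 2563 CPM, with a log2 fold change of 1.74 ± 0.28 (SE, adjusted p = 1.58e-06). The others were cpr-9 (1.95), cpr-5 (1.49), F28B4.3 (1.17) and vha-5 (1.03, adjusted p = 0.000921). Within the embryos numbered 1 to 50 the log2 fold changes of vha-5 and F28B4.3 were 0.76 and 0.81, under the limit of 2-fold. The vha-5 call was also lost with relative log expression factors (0.90), with DESeq2 (0.90) and without embryos 51 to 70 (0.91). The 5 vit members were not called, with log2 fold changes of 0.33 to 0.61 and adjusted p-values of 0.194 to 0.522. Relative to their pulse level, vha-5, asp-1, asp-5, cpr-9 and F28B4.3 stood highest later, with their highest late mean at 1314%, 544%, 527%, 438% and 426% of the mean at 60 to 100 min. All 25 embryos of 600 to 840 min were numbered 1 to 50, and 18 of the 25 of 400 to 590 min were.

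The concordant members had few exons. Of the 150 that are annotated as protein coding, 87 (58%) had 1 or 2 exons in the transcript with the longest coding sequence, against 10.2% of 3050 other genes with at least 50 CPM at 60 to 100 min. Most fbxb members had 2 exons (35 of 42), as did 49 of the 62 fbxb genes that are no members. Without the fbxb genes, 52 of 108 concordant members (48.1%) had 1 or 2 exons and 20 of them had 1. Among the 32 discordant members 6 (18.8%) had 1 or 2 exons. The median coding length was 912 bases in concordant members, 891 in discordant members and 1104 in the other genes at that level.

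Chromosome II held 57 of the 152 concordant members (37.5%), against 18.0% of 3062 other genes with at least 50 CPM at 60 to 100 min and 17.4% of all gene lines with a chromosome. Of the 57, 26 were fbxb genes, and 31 of the 110 concordant members without that name (28.2%) lay there. The X chromosome held 16 of the 152 (10.5%) and 13 of the 32 discordant members (40.6%). It held 8.07% of the other genes with at least 50 CPM and 13.7% of all gene lines with a chromosome. Of the concordant members 64 of 152 (42.1%) lay within 10000 bases of another one, in 21 groups. The largest were 2 groups of 8 on chromosome II, one with fbxb-43, fbxb-42, fbxb-44, fbxb-52, fbxb-51, fbxb-54, fbxb-50 and K05F6.4 (1536231 to 1557510 in WBcel235), and one with 5 fbxb genes, fbxc-21, fbxc-26 and sdz-18 (1676388 to 1706485). Of the other genes with at least 50 CPM, a far larger set, 73.2% had such a neighbour among themselves. The positions come from the annotation and were not used to read the table. In that annotation 7 members overlap another gene on the same strand, among them the members fbxb-83 and T17A3.12 with each other, so their counts cannot be told apart with certainty.

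Some members rest on narrow margins. At the minimum of 50 CPM, sdz-15 and ins-35 were just inside with means of 51.1 CPM each, and F10E7.1 and set-12 were just outside with 50.0 and 49.8 CPM. At the 8-fold limit over -50 to 0 min, ccch-2 and dct-13 were inside with 8.03 and 8.09 times, and D1081.6 and F15B10.3 outside with 7.93 and 7.91 times. At the limit over 200 to 290 min the inside genes were plag-15 and skr-13 with 8.02 and 8.24 times, and fbxb-15 and ugt-22 were outside with 7.97 and 7.88 times. Over 110 to 190 min the discordant members ule-5 and vit-1 were inside with 1.01 times each, while sdz-4 and Y19D10A.9 were outside with 0.993 and 0.991 times. The members whose level rested most on 1 embryo were D1086.10, Y37D8A.19, Y47G6A.15, cpr-5, K12H4.7 and ZC373.2, all discordant, with up to 53.1% of the sum over the 9 embryos from it. The median over concordant members was 22.6% and over discordant members 40.6%.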

How the data were processed

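The deposited table holds 20784 lines of raw counts per gene for 139 embryos. Per the submitters' processing notes, CASAVA 1.8, Bowtie2 2.1.0 and HTSeq 0.5.4p3 were used by the authors. The alignment build was not given in the sources used here, and positions were used for description only. The 92 spike-in lines and 5 counter lines were left out of totals and tests. Of all reads, 47.2% were in genes, 8.36% in no feature, 44.1% not aligned and 0.161% ambiguous. CPM was computed from the deposited counts over the 20687 gene lines. Names and positions come from the WBcel235 annotation (Ensembl release 115), which matched 20083 gene lines and all 184 members.

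Samples were grouped by labelled minutes. The tests were edgeR 4.0.16 quasi-likelihood tests with TMM normalization and filterByExpr (minimum count 10) in R 4.3.3, with Benjamini-Hochberg adjustment over all genes tested, each fitted on its own 2 windows. DESeq2 1.42.0, relative log expression factors, no filter, other ranges of title numbers, minutes as a number and leaving out embryos were the alternatives. Other values and figures were made with Python 3.11.15, pandas 2.3.3, numpy 2.4.6 and matplotlib 3.10.9. On simulated counts for 40 to 50 min against 10 to 30 min (7021 genes), 0 of 100 genes changed 2-fold, 18 of 100 changed 4-fold and 3 of 6821 unchanged genes were called. For the late comparison (5288 genes) these were 21 of 100, 78 of 100 and 2 of 5088. A count of 0 was taken to allow 3 counts. Where 2 libraries shared a labelled time of 70 to 90 min they differed by more than sampling noise (chi-square per degree of freedom of 23.6 or more).

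The members, 13 gene lists and 4 marker lists were chosen with earlier results of these data known. Named genes are the 12 members with the highest mean at 60 to 100 min, up to 3 per list or shared symbol prefix, the called members (up to 6 per test), the 6 with the highest relative late level, the genes next to each threshold and the 6 resting most on 1 embryo. Genes outside this rule are the other list genes given for context, and the other late members, early peaks and neighbours, which were chosen after their values were seen.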

Additional observations from a re-analysis of the deposited data

Results flagged for a closer look

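Of 57 groups of 4 to 10 embryos in which a value far from the others was looked for, 3 held one, and chance gives about 1 in 20. The collagen gene col-20 reached 1967 CPM in the embryo of 80 min numbered 10, against a median of 177 CPM over the 9 embryos of 60 to 100 min. The galectin gene lec-6 reached 184 CPM in the same embryo, against a median of 48.2 CPM. At -50 to 0 min the members took 1.25% of gene counts in the embryo numbered 97, against a median of 0.188% over 7 embryos, and that embryo had 30049 gene counts.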

How the results depend on the processing

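The number of genes that met the rule was 98 with a 16-fold limit, 251 with TMM library sizes, 261 with a 4-fold limit, 159 with medians, 151 with embryos 1 to 4 and 61 kept, and 162 within embryos 95 to 139. It was 176 to 201 without 1 embryo of 60 to 100 min. Without embryo 9, 13 of the 32 discordant and 151 of the 152 concordant members still met the rule. Without embryo 10 these were 13 and 150. Without any 1 of embryos 103 to 107 they were 32 and 137 to 147. The split chose the discordant members to be low in embryos 95 to 139, so these counts partly follow from it. With the 16-fold limit the discordant and concordant counts were 6 and 92, with medians 1 and 131, and with embryos 1 to 4 and 61 kept 0 and 149. Chosen after seeing the data, leaving out embryo 97 gave 214 genes and leaving out embryos 9, 10, 55 and 56 gave 205.

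For 40 to 50 min against 10 to 30 min, genes and members called higher were 0 and 0 with relative log expression factors, DESeq2 (10 genes lower) or embryos 95 to 139 only, 10 and 6 without the filter, and 24 and 19 with minutes as a number. Without either embryo of 40 to 50 min both were 0. Without embryos 99 and 100 they were 7 and 3, and without 46, 53 and 54 they were 91 and 59, with 10 genes lower, both chosen after seeing the data. Directions turned in embryos 95 to 139 only, with minutes as a number and without 46, 53 and 54 (log2 fold change, log2 slope per 10 min and log2 fold change) for vet-1 (0.33, 1.42 and 1.62), vit-5 (1.62, 2.70 and 3.76), vit-2 (0.041, 2.31 and 2.01) and vit-3 (1.03, 2.88 and 3.70). Without 1 embryo of 40 to 50 min the value ranged over -1.16 to 0.12 for vet-1 and -0.035 to 1.66 for tbx-11. The cause was not tested.

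For 600 to 840 min against 400 to 590 min, DESeq2 called 1522 of 16682 genes higher and 2007 lower. Of 145 members tested it called 9 higher and 5 lower. Without the filter, which tests more genes, 2871 of 16682 genes were higher and 2465 lower. Of 145 members, 15 were then higher and 26 lower. Within embryos 1 to 50, 5 of 38 tested members were higher and 1 lower, against 703 and 617 of 5572 genes. No paired analysis was possible because the labels give no replicate numbers shared between the groups. Depth limits low levels: a count of 0 allowed up to 243 CPM at 300 to 390 min, 168 CPM at 200 to 290 min, 127 CPM at 10 to 30 min and 76.1 CPM at 600 to 840 min.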
